A study of Homo sapiens with 12 samples.

Results

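Glucose enters a cell through membrane transporters, is split to pyruvate by the enzymes of glycolysis, and can be rebuilt from pyruvate by gluconeogenesis. The 38 genes described here code for the transporters, enzymes and regulators of these steps: glucose uptake, phosphorylation of glucose, the chain from hexose phosphate to pyruvate, the lactate and acetyl-CoA branches behind pyruvate, gluconeogenesis, and the export of lactate. They were chosen by name for these functions and make up 38 of the 58174 genes listed in each of 2 deposited tables, 1 per cell line. The rule itself uses no measured value.

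The study sequenced poly-A RNA of 2 human tumour cell lines, HepG2 from a liver tumour and BE(2)-C from a neuroblastoma. Cells received either a control siRNA named after a worm miRNA (siC) or a pool of siRNAs directed against the RNA-binding protein IGF2BP1 (siI1), and were harvested 72 h later. Each cell line had 3 siC and 3 siI1 libraries, 12 libraries in all. Both groups of a line were transfected, and the siRNA concentration used was higher for BE(2)-C than for HepG2. The study's methods call the 3 libraries of a group biological replicates. Neither they nor the labels say that these come from separate cultures, so the p-values measure the spread between these libraries. Between 12852988 and 15721210 reads were assigned to genes per library, as recovered from the deposited FPKM (fragments per kilobase of transcript, scaled to library size) and the gene lengths.

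Glycolysis yields a little ATP without oxygen, and its intermediates feed the pentose phosphate, hexosamine and serine routes. Most of its steps can be catalysed by several isozymes that are encoded by separate genes and differ between tissues. Liver cells both use and make glucose, whereas neural cells take it up as their main fuel, and tumour cells of many origins release much of their glucose carbon as lactate.

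IGF2BP1, which binds mRNAs in the cytoplasm and can protect them from decay, is the target of the siRNA pool and was read first. Control libraries of HepG2 held it at 48.5, 46.6 and 50.8 FPKM and siI1 libraries at 12.6, 10.7 and 10.7 (log2 fold change -2.10, SE 0.08, limma with Benjamini-Hochberg adjusted p = 7.8e-06, n = 3 per group). For BE(2)-C the values were 21.3, 20.6 and 21.6 with siC and 4.85, 4.75 and 4.87 with siI1 (log2 fold change -2.11, SE 0.05, limma adjusted p = 1.5e-05). Every siI1 library was thus far below every siC library of its line.

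The lines were checked by lists of 10 defining genes each. The liver genes (ALB, AFP, APOA1, APOA2, APOB, TTR, SERPINA1, FGB, TF and HNF4A) summed to 10197 to 16236 FPKM in HepG2, with ALB as the most abundant, and to 0.0119 to 0.237 in BE(2)-C, where AFP, APOA2, FGB and HNF4A were at 0 in every library. The neuroblastoma genes (among them MYCN, PHOX2A, HAND2, GATA3, DBH, CHGA, CHGB, STMN2 and ISL1) summed to 3751 to 4297 FPKM in BE(2)-C, with MYCN as the most abundant, and to 0.319 to 0.62 in HepG2, where HAND2, CHGA, STMN2 and ISL1 were at 0. The liver list itself moved with the knockdown: its sum in HepG2 came to 10197, 10540 and 10259 with siC and 14032, 16029 and 16236 with siI1, with 6 of its 10 genes higher and 3 lower. The neuroblastoma list summed to 3975, 3751 and 3770 with siC and 4297, 4167 and 4247 with siI1 in BE(2)-C, with 3 genes higher and 4 lower. The part of these shifts in the results below was not tested. In bulk RNA, fewer cells that express a gene and less of its RNA per cell cannot be told apart.

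Each table was tested with limma on log2(FPKM + 0.1), over all genes that reached an FPKM of 0.1 in 3 or more of 6 libraries, and a gene was called at an adjusted p below 0.05. All fold changes are siI1 against siC on this scale, which understates the change of genes near 0. In HepG2, 37 of the 38 genes passed the filter; 11 fell, where 23.0% of all 19436 tested genes were called lower, and 8 rose, where 21.9% were called higher. That is 51.4% called in either direction, against 44.8% of all tested genes and 55.9% of the tested protein-coding ones. For BE(2)-C, 32 passed; 8 fell, where 14.8% of all 18656 tested genes were called lower, and 6 rose, where 13.3% were called higher. Here 43.8% were called, against 28.2% of all tested genes and 35.4% of the protein-coding ones. A share near the background is not a result about these genes, and what follows concerns which genes moved, how far and which way.

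The middle of the set did not shift much in either line. The median log2 fold change of the genes tested was 0.02 in HepG2, where it was 0.01 over all genes, and -0.09 in BE(2)-C, where it was 0.02. Sizes differed more: the median absolute log2 fold change was 0.42 in HepG2 and 0.19 in BE(2)-C, beside 0.46 and 0.29 over all genes. Of the called genes, 15 in HepG2 and 5 in BE(2)-C moved by at least 0.5 on the log2 scale. PCK1 did not pass the filter in HepG2. SLC2A2, HKDC1, PKLR, PDK4, PCK1 and SLC16A3 did not pass it in BE(2)-C.

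The split between higher and lower depends on scaling in HepG2. The deposited values of its siC libraries summed to 252616 to 264612 FPKM and those of its siI1 libraries to 273699 to 300505. With every library scaled to the same sum, the median over all genes moved from 0.01 to -0.15, 35.5% rather than 48.8% of all called genes were higher, and the split of the 38 genes went from 11 lower and 8 higher to 16 lower and 6 higher. Centring the libraries on their median gave 10 lower and 10 higher. For genes of HepG2 whose call depends on equal sums, the value after that scaling is given below.

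**Figure D1:**
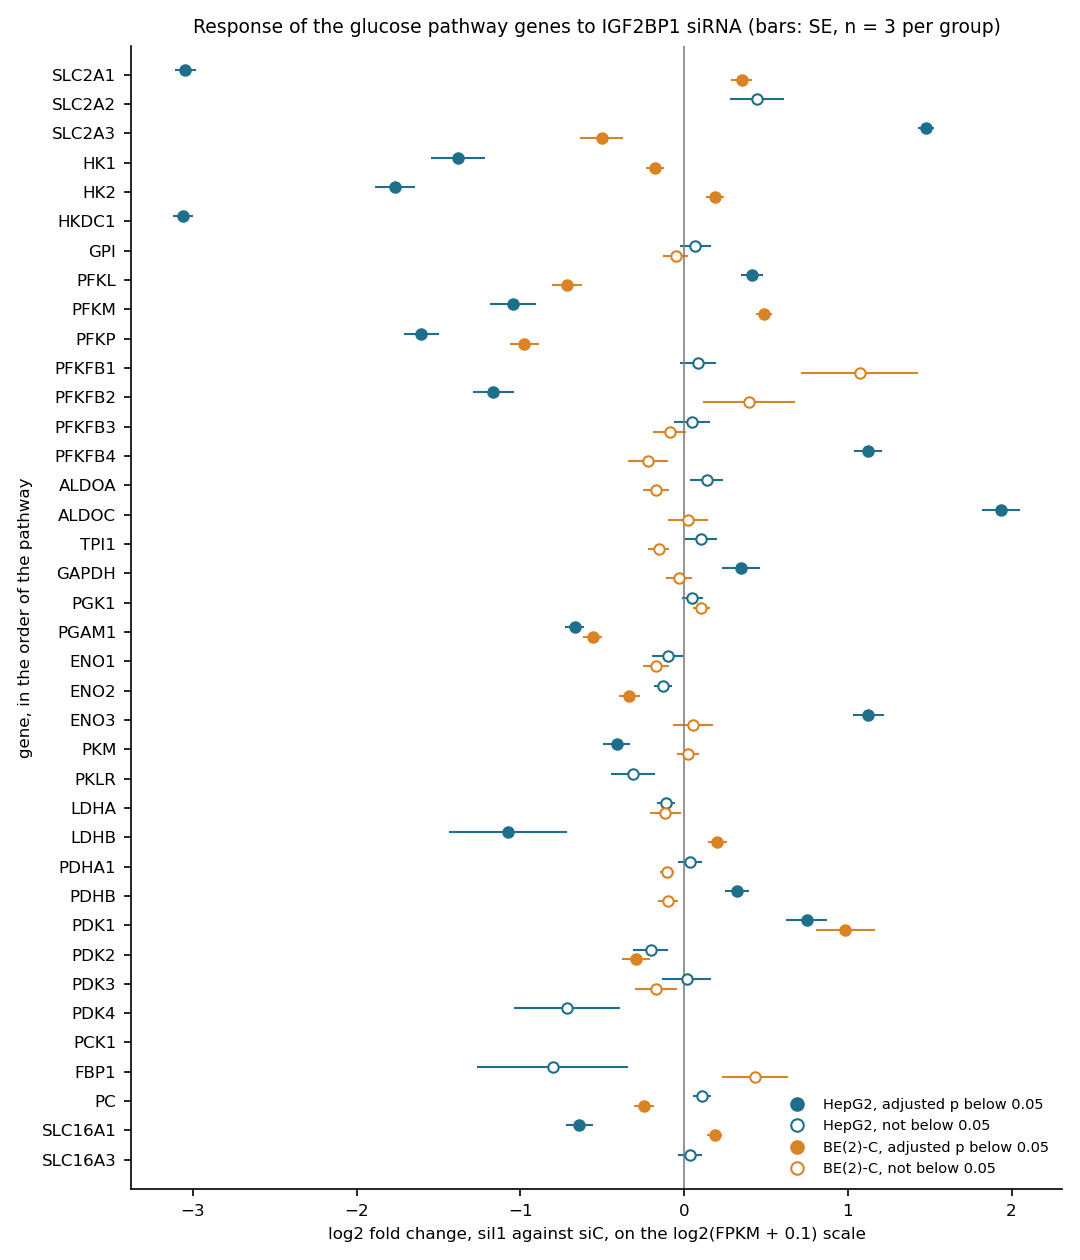
Log2 fold change (siI1 against siC, on the log2(FPKM + 0.1) scale) of each gene in HepG2 and BE(2)-C, in the order of the pathway, with SE bars, 3 libraries per group and filled points at a limma adjusted p below 0.05. SLC2A1 and HKDC1 lie near -3 in HepG2, while no gene of BE(2)-C that was called reaches beyond -0.98 or 0.99; genes without a point did not pass the filter.

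The mRNAs of the main glucose carriers changed in opposite directions. SLC2A1 codes for GLUT1, the transporter of basal uptake in most cells (ENSG00000117394, chr1:42925353-42958893 of hg38, minus strand). In HepG2 its FPKM came to 278, 298 and 300 with siC and 33.3, 35.0 and 37.5 with siI1. The groups did not overlap, and the mean was 8.28-fold lower with siI1 (log2 fold change -3.05, SE 0.06, limma adjusted p = 1.4e-06). BE(2)-C had 35.8, 32.6 and 33.3 with siC and 46.1, 40.1 and 44.0 with siI1. All siI1 libraries were above all siC libraries there, and the gene rose (log2 fold change 0.35, SE 0.06, limma adjusted p = 0.0077).

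SLC2A3, which codes for the high-affinity transporter GLUT3 best known from neurons, did the reverse in both lines. In HepG2 its FPKM came to 56.0, 58.9 and 56.3 with siC and 157, 157 and 162 with siI1 (log2 fold change 1.48, SE 0.05, limma adjusted p = 4.9e-06). The gene was low in BE(2)-C, at 3.22, 2.74 and 3.05 with siC and 2.49, 1.87 and 1.94 with siI1 (log2 fold change -0.50, SE 0.13, limma adjusted p = 0.03). The HepG2 groups are 2.78-fold apart without overlap; those of BE(2)-C are close but do not overlap. The BE(2)-C call was lost without siC replicate 1 or 3 or siI1 replicate 2 or 3 (limma adjusted p = 0.079 to 0.097, and 0.0016 to 0.097 over all settings). SLC2A2, which codes for the liver and beta cell transporter GLUT2, had a HepG2 FPKM of 5.24 to 10.3, with no overlap, and did not pass the test (log2 fold change 0.45, limma adjusted p = 0.065). It was called higher with a filter of at least 1 FPKM, after median centring, with the replicate block and without siI1 replicate 3 (limma adjusted p = 0.027 to 0.047, and 0.027 to 0.29 over all settings). It was at 0 reads in every BE(2)-C library.

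The hexokinases, which trap glucose in the cell as glucose-6-phosphate, fell in HepG2 for each of the 3 genes in the set. HKDC1, a hexokinase family gene of low enzyme activity, was the most abundant of them. Its HepG2 FPKM came to 35.1, 37.8 and 37.8 with siC and 4.43, 4.43 and 4.14 with siI1. This was 8.52-fold lower, with no overlap (log2 fold change -3.06, SE 0.06, limma adjusted p = 1.4e-06). No BE(2)-C library had a read on HKDC1. HK2, the inducible muscle and tumour hexokinase, had a HepG2 FPKM of 6.88, 6.85 and 7.10 with siC and 2.16, 2.17 and 1.63 with siI1 (log2 fold change -1.77, SE 0.12, limma adjusted p = 6.8e-05). HK1, the housekeeping hexokinase, was scarce in this line at 2.07, 1.87 and 1.59 with siC and 0.597, 0.633 and 0.702 with siI1 (log2 fold change -1.38, SE 0.16, limma adjusted p = 0.00064). Both genes were below the siC range in every siI1 library.

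The same hexokinases moved little in BE(2)-C. HK1, the main one there, was at 59.2, 52.6 and 55.4 FPKM with siC and 49.9, 49.8 and 47.8 with siI1 (log2 fold change -0.18, SE 0.05, limma adjusted p = 0.045). HK2 was at 17.7, 17.3 and 17.1 with siC and 20.9, 19.8 and 18.8 with siI1 (log2 fold change 0.19, SE 0.05, limma adjusted p = 0.037). Neither pair of groups overlapped, but both calls sat close to the threshold. The HK1 call was lost without siC replicate 1 or 3 or any siI1 library (limma adjusted p up to 0.14, and 0.0096 to 0.14 over all settings). The replicate block, median centring, no filter and no mean-variance trend also ended it (limma adjusted p = 0.0535 to 0.13). The HK2 call was lost without any siC library or siI1 replicate 1 or 2, with no filter and without the trend (limma adjusted p up to 0.11, and 0.0071 to 0.11 over all settings). HKDC1 and HK1 are neighbours on chromosome 10, on the same strand: HKDC1 (chr10:69220332-69267552) ends 2431 bases before HK1 (chr10:69269984-69401884) begins.

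HK2 lies on chromosome 2 (chr2:74834127-74893359, plus strand). The stretch of 250 bases before its first annotated base (RefSeq, GRCh38.p14, chr2:74833877-74834126, plus strand) is shown because the gene fell in HepG2 and because its promoter holds the letters ACGTG, the core that hypoxia-inducible factors and several other factors can bind. Capitals mark that core, which is read here on the opposite strand as CACGT and occurs 2 times.
HK2: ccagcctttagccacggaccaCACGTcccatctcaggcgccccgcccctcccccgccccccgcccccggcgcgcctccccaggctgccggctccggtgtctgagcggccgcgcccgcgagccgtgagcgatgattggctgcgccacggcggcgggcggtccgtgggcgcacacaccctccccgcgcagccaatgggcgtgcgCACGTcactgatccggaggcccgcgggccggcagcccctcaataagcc
The core and the promoters printed were chosen after the values and the matches were seen. A match describes these letters and is neither a binding site nor a cause.

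**Figure D2:**
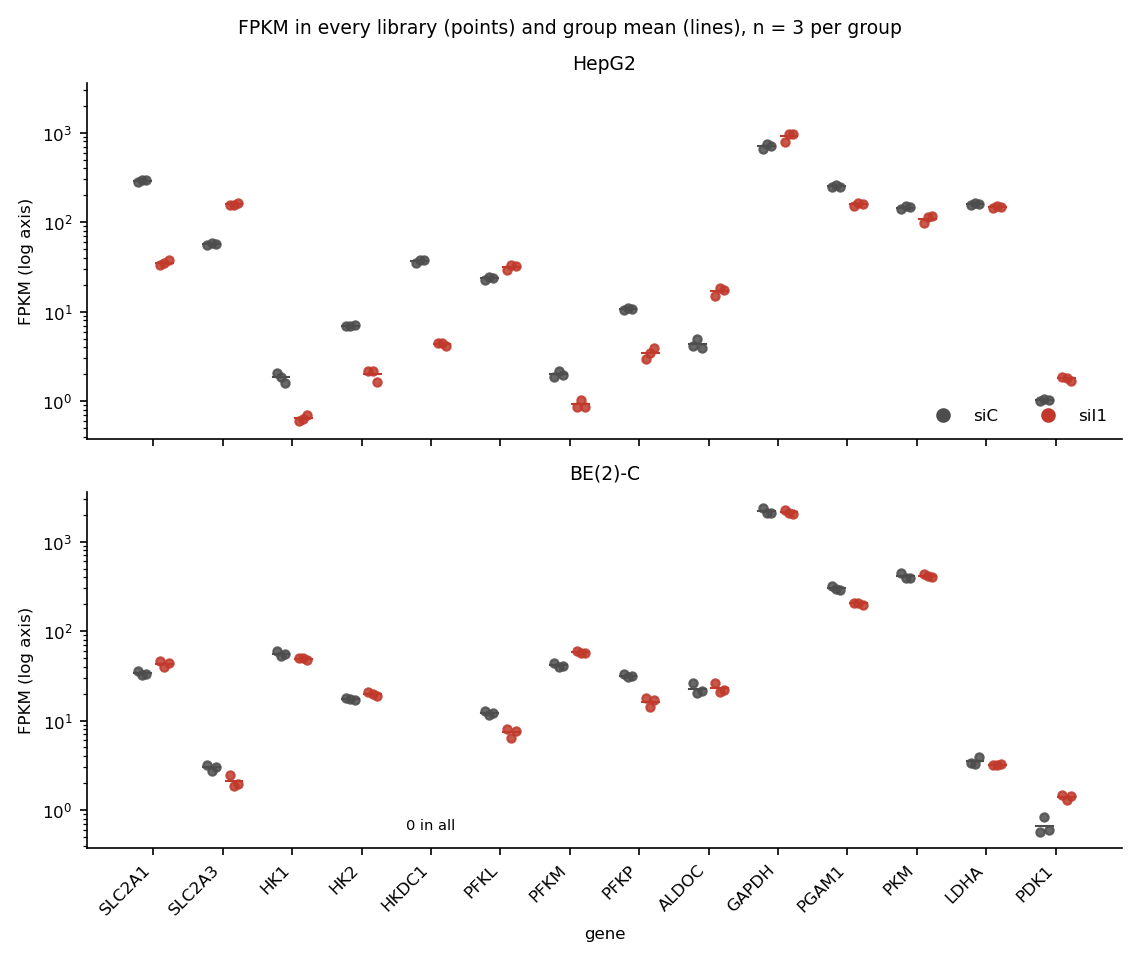
FPKM (log axis) of 14 genes in every library of HepG2 and BE(2)-C, siC in grey and siI1 in red, with lines at the mean of the 3 libraries of a group. In HepG2 SLC2A1 and HKDC1 drop by about the same factor while SLC2A3 climbs, and LDHA lies far lower in BE(2)-C, where HKDC1 has no reads.

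GPI, the isomerase that follows the hexokinases, did not pass the test in either line, with 22.1 to 27.8 FPKM in HepG2 and 89.9 to 108 in BE(2)-C. The step behind it, the committed step of glycolysis, is catalysed by phosphofructokinase, whose liver, muscle and platelet subunits are encoded by PFKL, PFKM and PFKP. PFKL was at 22.3, 24.6 and 24.0 FPKM with siC and 29.4, 33.2 and 32.2 with siI1 in HepG2 (log2 fold change 0.42, SE 0.07, limma adjusted p = 0.0024, and 0.25 with equal sums). BE(2)-C libraries had PFKL at 12.7, 11.6 and 12.1 with siC and 8.03, 6.44 and 7.69 with siI1 (log2 fold change -0.71, SE 0.09, limma adjusted p = 0.0019). The liver subunit thus rose in the line where it dominates and fell in the other, in each case without overlap.

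PFKM showed the mirror image. It was scarce in HepG2, with 1.87, 2.15 and 1.97 FPKM with siC and 0.863, 1.03 and 0.863 with siI1 (log2 fold change -1.05, SE 0.14, limma adjusted p = 0.0011). As the main subunit of BE(2)-C, it was at 43.4, 40.1 and 40.4 with siC and 59.4, 57.4 and 57.0 with siI1 (log2 fold change 0.49, SE 0.05, limma adjusted p = 0.00065). Again no siI1 library came into the siC range of its line. PFKM shares 516 exonic bases with SENP1 on the opposite strand, which had more reads than PFKM in HepG2 (1289 against 915, summed over libraries). The methods describe strand-specific libraries but state no strand setting for the counting, and whether reads were kept apart by strand was not tested.

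PFKP was the subunit that fell in both lines. It was at 10.4, 10.9 and 10.6 FPKM with siC and 2.95, 3.49 and 3.88 with siI1 in HepG2 (log2 fold change -1.60, SE 0.10, limma adjusted p = 5.1e-05). Values in BE(2)-C were 33.1, 30.7 and 31.6 with siC and 17.7, 14.1 and 16.8 with siI1 (log2 fold change -0.98, SE 0.09, limma adjusted p = 0.00052). The fall was larger in HepG2 by -0.63 on the log2 scale (SE 0.14, limma adjusted p = 0.0044 for the difference).

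The PFKFB enzymes make and degrade fructose-2,6-bisphosphate, the strongest activator of phosphofructokinase. PFKFB4 rose in HepG2, from 2.65, 2.81 and 2.82 FPKM with siC to 5.86, 5.87 and 6.68 with siI1 (log2 fold change 1.12, SE 0.09, limma adjusted p = 9.8e-05). It was at 2.77, 2.43 and 2.81 with siC and 2.62, 2.18 and 2.05 with siI1 in BE(2)-C, where the groups overlapped and the test was not passed. PFKFB2, the heart isozyme, fell in HepG2 from 3.72, 3.12 and 3.31 to 1.62, 1.39 and 1.36 (log2 fold change -1.16, SE 0.12, limma adjusted p = 0.00039). It was near 0 in BE(2)-C, at 0.178, 0.191 and 0.330 with siC and 0.393, 0.284 and 0.318 with siI1, with overlap. A gene on its opposite strand, YOD1, shares 315 exonic bases with it. YOD1 had 1806 reads beside 2134 of PFKFB2 in HepG2 and 1488 beside 246 in BE(2)-C. PFKFB3, known for its high kinase activity, ranged from 2.77 to 3.47 FPKM in HepG2 and from 5.76 to 7.72 in BE(2)-C, with overlap in both. PFKFB1, the liver isozyme, ranged from 3.07 to 3.91 in HepG2 with overlap. It had only 1 to 11 reads per library in BE(2)-C (log2 fold change 1.07, SE 0.36, limma adjusted p = 0.065).

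Aldolase splits fructose-1,6-bisphosphate into a pair of triose phosphates. Its main gene, ALDOA, ranged from 174 to 222 FPKM in HepG2 and from 357 to 465 in BE(2)-C and passed the test in neither line. Limma voom on the recovered reads called it lower in BE(2)-C (log2 fold change -0.16, limma voom adjusted p = 0.0050), as it did TPI1 (-0.14, limma voom adjusted p = 0.0033) and ENO1 (-0.16, limma voom adjusted p = 0.0042), whose groups did not overlap there. Over all settings the adjusted p of these 3 ran up to 0.35, 0.30 and 0.34. The brain isozyme ALDOC rose in HepG2 from 4.11, 4.96 and 3.96 with siC to 14.8, 18.4 and 17.4 with siI1. This was a 3.88-fold higher mean with no overlap (log2 fold change 1.93, SE 0.12, limma adjusted p = 3.6e-05). ALDOC of BE(2)-C was at 26.5, 20.3 and 21.4 with siC and 26.2, 20.7 and 22.2 with siI1, which overlapped throughout (log2 fold change 0.02, SE 0.12, limma adjusted p = 0.91).

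ALDOC lies on the minus strand of chromosome 17 (chr17:28573115-28576948). The 197 bases before its first annotated base (RefSeq, GRCh38.p14, chr17:28576949-28577145, minus strand) are shown because the gene had the largest rise of the 38 in HepG2 and because its promoter holds the palindrome CACGTG, which contains ACGTG on both strands. Capitals mark the palindrome.
ALDOC: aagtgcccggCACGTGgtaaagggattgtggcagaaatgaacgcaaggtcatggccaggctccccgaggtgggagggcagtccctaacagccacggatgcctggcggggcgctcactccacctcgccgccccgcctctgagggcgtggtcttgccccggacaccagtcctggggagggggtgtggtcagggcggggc
RefSeq sequences were matched for 34 of the 38 genes, and SLC2A3, PFKFB2, PCK1 and SLC16A1 had no entry. Within 250 bases before the start, ACGTG or its reverse complement CACGT was held by 12 of the 34 genes and by 18.5% of all 34796 promoters. It was held by 1 of the 9 matched genes that fell in HepG2, 3 of the 7 that rose and 8 of the 18 that were not called. GCGTG or CACGC was held by 12 of the 34 genes and by 32.2% of all promoters. CACGTG, which is its own reverse complement and always contains ACGTG, was held by ALDOC, GAPDH, LDHA, PDHB and PKLR, or 5 of the 34, and by 6.31% of all promoters. No test was made of these shares, and they say nothing about any factor.

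The triose isomerase TPI1 was among the genes not called, with 174 to 216 FPKM in HepG2 and 576 to 708 in BE(2)-C. GAPDH, which oxidises glyceraldehyde-3-phosphate, was the most abundant gene of the set in both lines (ENSG00000111640, chr12:6534512-6538374, plus strand). It served the study as a control mRNA in decay assays of another line, from an ovarian cancer. In HepG2 its FPKM came to 664, 756 and 710 with siC and 789, 960 and 973 with siI1. It was called higher by a narrow margin (log2 fold change 0.35, SE 0.12, limma adjusted p = 0.046). The groups did not overlap, but with equal sums of FPKM the log2 fold change was 0.18 and the call was lost (limma adjusted p = 0.057, and 0.0034 to 0.15 over all settings). It was also lost without any siC library or siI1 replicate 2 or 3 (limma adjusted p = 0.071 to 0.15). GAPDH of BE(2)-C was at 2368, 2074 and 2082 with siC and 2234, 2095 and 2049 with siI1, with overlap and a log2 fold change of -0.03 that turned to 0.01 when libraries were centred on their median (SE 0.08, limma adjusted p = 0.82 as deposited).

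The study's primers for GAPDH mRNA are shown because they say which piece of the control mRNA was measured in its other assays. They matched the GAPDH transcript exactly, within exon 9 of 9. The forward primer lies in the coding part (chr12:6538107-6538126, plus strand) and the reverse primer in the untranslated part (chr12:6538257-6538276, minus strand). As a pair they frame 170 bases, and among annotated transcripts they matched only those of GAPDH, 9 in number. The genome outside annotated transcripts was not searched. No letters are in capitals because no base differs from the reference.
GAPDH forward: caacgaatttggctacagca
GAPDH reverse: aggggagattcagtgtggtg
The tables also list 62 GAPDH pseudogenes, whose reads came to 0.442% of those of GAPDH in HepG2 and 0.167% in BE(2)-C.

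PGK1, the first ATP-yielding kinase of the pathway, was not called, at 63.8 to 73.0 FPKM in HepG2 and 191 to 224 in BE(2)-C, although equal sums made it higher in BE(2)-C (log2 fold change 0.12, limma adjusted p = 0.043, and 0.012 to 0.42 over all settings). PGAM1, the mutase that moves the phosphate group of phosphoglycerate, fell in both lines. It was at 250, 261 and 250 with siC and 153, 166 and 160 with siI1 in HepG2 (log2 fold change -0.67, SE 0.06, limma adjusted p = 0.00017). The BE(2)-C values were 321, 295 and 288 with siC and 209, 208 and 197 with siI1 (log2 fold change -0.56, SE 0.06, limma adjusted p = 0.00077). The groups were well apart in each line, and the difference between the lines was not called (-0.11, SE 0.08, limma adjusted p = 0.31) except with equal sums (-0.30, limma adjusted p = 0.0017, and 0.0017 to 0.63 over all settings). PGAM1 was thus the abundant glycolytic enzyme whose mRNA fell in both, by 1.59-fold and 1.47-fold.

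Among the enolases, which form phosphoenolpyruvate, the main gene ENO1 ranged from 296 to 378 FPKM in HepG2 and from 553 to 720 in BE(2)-C and was not called. With equal sums it was called lower in HepG2 (log2 fold change -0.27 in place of -0.10, limma adjusted p = 0.0065, and 0.0065 to 0.95 over all settings). The muscle enolase ENO3 was at 5.01, 6.29 and 5.66 with siC and 11.6, 13.1 and 12.5 with siI1 in HepG2 (log2 fold change 1.13, SE 0.10, limma adjusted p = 0.00015). ENO3 of BE(2)-C was at 6.46, 4.76 and 5.70 with siC and 5.999, 6.20 and 5.29 with siI1, with overlap. The HepG2 siI1 values for ENO3 lay 2.20-fold above siC. ENO3 shares 111 exonic bases with the abundant gene PFN1 on the opposite strand, which had 62446 reads in HepG2 beside 3271 of ENO3. The neuronal enolase ENO2 fell in BE(2)-C within a range of 73.4 to 104 FPKM (log2 fold change -0.33, SE 0.06, limma adjusted p = 0.0081). At 17.6 to 20.6 FPKM in HepG2, where the groups did not overlap, it was not called (log2 fold change -0.13, limma adjusted p = 0.097). With equal sums it was called lower there (-0.30, limma adjusted p = 0.0022, and 0.0022 to 0.60 over all settings).

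Pyruvate kinase makes pyruvate and ATP. PKM was at 140, 151 and 146 FPKM with siC and 97.4, 115 and 117 with siI1 in HepG2, where it fell (log2 fold change -0.41, SE 0.08, limma adjusted p = 0.0067). PKM of BE(2)-C was at 444, 393 and 393 with siC and 436, 411 and 403 with siI1, with overlap (log2 fold change 0.03, SE 0.07, limma adjusted p = 0.81). The tables give 1 value per gene, so the M1 and M2 forms of PKM were not told apart. PKLR, the liver and red cell pyruvate kinase, was low in HepG2 at 1.76 to 2.72 and not called, except with equal sums (log2 fold change -0.47, limma adjusted p = 0.041, and 0.041 to 0.26 over all settings). It had at most 1 read per library in BE(2)-C.

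Lactate dehydrogenase converts pyruvate and lactate into each other, and the lines rely on different subunits of it. LDHA, the subunit that favours lactate formation, was at 157, 164 and 159 FPKM with siC and 143, 153 and 150 with siI1 in HepG2. The groups did not overlap but the test was not passed (log2 fold change -0.11, SE 0.05, limma adjusted p = 0.15), whereas with equal sums it was (-0.28, limma adjusted p = 0.0013, and 0.0013 to 0.83 over all settings). LDHA of BE(2)-C was at 3.34, 3.25 and 3.93 with siC and 3.17, 3.20 and 3.29 with siI1, with overlap.

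LDHB, the subunit prevalent in heart, was at 530, 583 and 540 FPKM with siC and 657, 621 and 622 with siI1 in BE(2)-C (log2 fold change 0.20, SE 0.06, limma adjusted p = 0.041). In HepG2 it had only 0 to 11 reads per library, or 0.151, 0.172 and 0.250 FPKM with siC and 0.0744, 0.046 and 0 with siI1 (log2 fold change -1.08, SE 0.36, limma adjusted p = 0.048). LDHA made up 99.8% to 100% of the LDHA and LDHB FPKM in HepG2, and LDHB 99.3% to 99.5% in BE(2)-C. Both calls were narrow. That of HepG2 was lost without any siC library or siI1 replicate 2 or 3 (limma adjusted p = 0.084 to 0.15), and also after median centring, with the replicate block and with other pseudocounts, which moved the log2 fold change to -2.44 (0.01) or -0.20 (1). That of BE(2)-C was lost without siC replicate 1 or 3 or any siI1 library (limma adjusted p = 0.088 to 0.11), with no filter, without the trend and with the replicate block. Over all settings the adjusted p ran from 0.015 to 0.15 in HepG2 and from 4.8e-05 to 0.11 in BE(2)-C.

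Behind pyruvate, the pyruvate dehydrogenase complex makes acetyl-CoA, and the 4 PDK kinases switch it off. Of the genes for its first enzyme, PDHA1 was not called in either line (20.7 to 24.4 FPKM in HepG2 and 30.4 to 34.0 in BE(2)-C). PDHB rose in HepG2 within a range of 14.7 to 20.05 (log2 fold change 0.32, SE 0.07, limma adjusted p = 0.011), a call that was lost with equal sums (0.16, limma adjusted p = 0.054, and 0.0037 to 0.054 over all settings). It was not called in BE(2)-C, at 9.71 to 11.4.

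PDK1 was the only gene of the 38 called higher in both lines in these fits, and it kept both calls under every setting tried (limma adjusted p up to 0.016 in HepG2 and 0.033 in BE(2)-C). It was at 1.01, 1.05 and 1.03 FPKM with siC and 1.88, 1.82 and 1.69 with siI1 in HepG2 (log2 fold change 0.75, SE 0.13, limma adjusted p = 0.0031). In BE(2)-C it was at 0.571, 0.828 and 0.591 with siC and 1.46, 1.30 and 1.43 with siI1 (log2 fold change 0.99, SE 0.18, limma adjusted p = 0.0072). No siI1 library overlapped the siC range of its line, and the difference between the lines was not called (-0.24, SE 0.21, limma adjusted p = 0.39). PDK2 fell in BE(2)-C within 4.15 to 5.99 (log2 fold change -0.29, SE 0.09, limma adjusted p = 0.045) and was not called in HepG2 at 4.69 to 6.51, except with equal sums (-0.37, limma adjusted p = 0.013, and 0.013 to 0.42 over all settings). The BE(2)-C call of PDK2 was lost without any siC library or siI1 replicate 2 or 3 (limma adjusted p up to 0.13, and 0.016 to 0.13 over all settings). PDK3 was not called in either line. PDK4, which is induced by fasting in many tissues, had 5 to 27 reads per library in HepG2, was not called there, and had at most 1 read in BE(2)-C.

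Of the gluconeogenic genes in the set, FBP1 and PCK1 were scarce. PC, which turns pyruvate into oxaloacetate, ranged from 23.3 to 26.4 FPKM in HepG2, where it was not called. It fell in BE(2)-C within 16.7 to 22.1 (log2 fold change -0.24, SE 0.06, limma adjusted p = 0.025). That call was lost without any 1 siI1 library (limma adjusted p = 0.062 to 0.083, and 0.0049 to 0.083 over all settings). The replicate block, median centring and leaving out the trend also ended it (limma adjusted p = 0.055 to 0.077). FBP1, the fructose-1,6-bisphosphatase of liver and kidney, had 1 to 12 reads per library in HepG2 and 34 to 77 in BE(2)-C and was not called. PCK1, the cytosolic enzyme for phosphoenolpyruvate, had 2 to 12 reads in HepG2, which was under the filter, and none in BE(2)-C.

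Lactate leaves the cell through monocarboxylate transporters. SLC16A1, which codes for MCT1, was at 25.3, 23.5 and 25.7 FPKM with siC and 17.7, 15.6 and 14.5 with siI1 in HepG2 (log2 fold change -0.64, SE 0.08, limma adjusted p = 0.00095). SLC16A1 of BE(2)-C was at 46.5, 49.1 and 50.3 with siC and 54.7, 56.5 and 54.8 with siI1 (log2 fold change 0.19, SE 0.04, limma adjusted p = 0.021). It thus fell in one line and rose slightly in the other, each time without overlap, though the rise was no longer called without any 1 siI1 library (limma adjusted p = 0.054 to 0.082, and 0.0032 to 0.091 over all settings). SLC16A3, which codes for the export carrier MCT4, ranged from 46.2 to 54.3 in HepG2 and was not called, and had 3 to 12 reads per library in BE(2)-C.

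The changes redistributed the isozymes within their families. Shares of a family's summed FPKM do not depend on how a library is scaled. An exact permutation test of 3 libraries against 3 reaches p = 0.1 at the least, and every share named here gave that p (two-sided), so the calls above rest on limma. In HepG2, SLC2A1 held 81.6%, 82.3% and 82.8% of the FPKM of SLC2A1, SLC2A2 and SLC2A3 with siC and 16.6%, 17.6% and 18.2% with siI1. SLC2A3 held 16.4%, 16.3% and 15.5% with siC and 78.3%, 78.5% and 78.6% with siI1. The main glucose transporter mRNA of HepG2 was thus SLC2A1 in every siC library and SLC2A3 in every siI1 library. SLC2A1 held over 91% throughout in BE(2)-C, at 91.6% to 92.3% with siC and 94.9% to 95.8% with siI1.

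Phosphofructokinase moved toward a single subunit in each line, a different one in each. In HepG2 PFKL went from 64.6%, 65.4% and 65.7% of the family with siC to 88.5%, 88.0% and 87.1% with siI1. PFKM of BE(2)-C went from 48.7%, 48.7% and 48.0% to 69.8%, 73.7% and 70.0%. Both moved by 22.7 percentage points, mostly at the cost of PFKP, which lost 19.7 points in HepG2 and 17.5 in BE(2)-C. The summed FPKM of the 3 genes overlapped between groups in both lines, with means of 36.3 and 35.9 in HepG2 and 85.2 and 81.5 in BE(2)-C, so the composition changed more than the total.

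Hexokinase differed from this, since its total in HepG2 fell with its composition. The 3 genes summed to 44.0, 46.6 and 46.5 FPKM with siC and 7.18, 7.24 and 6.48 with siI1, a 6.56-fold lower mean. HKDC1 went from 79.7%, 81.3% and 81.3% of that sum to 61.6%, 61.2% and 64.0%. The sum overlapped in BE(2)-C (69.9 to 77.0 with siC, 66.6 to 70.9 with siI1) and HK1 went from 77.0%, 75.3% and 76.4% to 70.5%, 71.5% and 71.8%. The 3 glucose transporters together summed to a 1.75-fold lower mean in HepG2, 355 with siC and 202 with siI1.

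**Figure D3:**
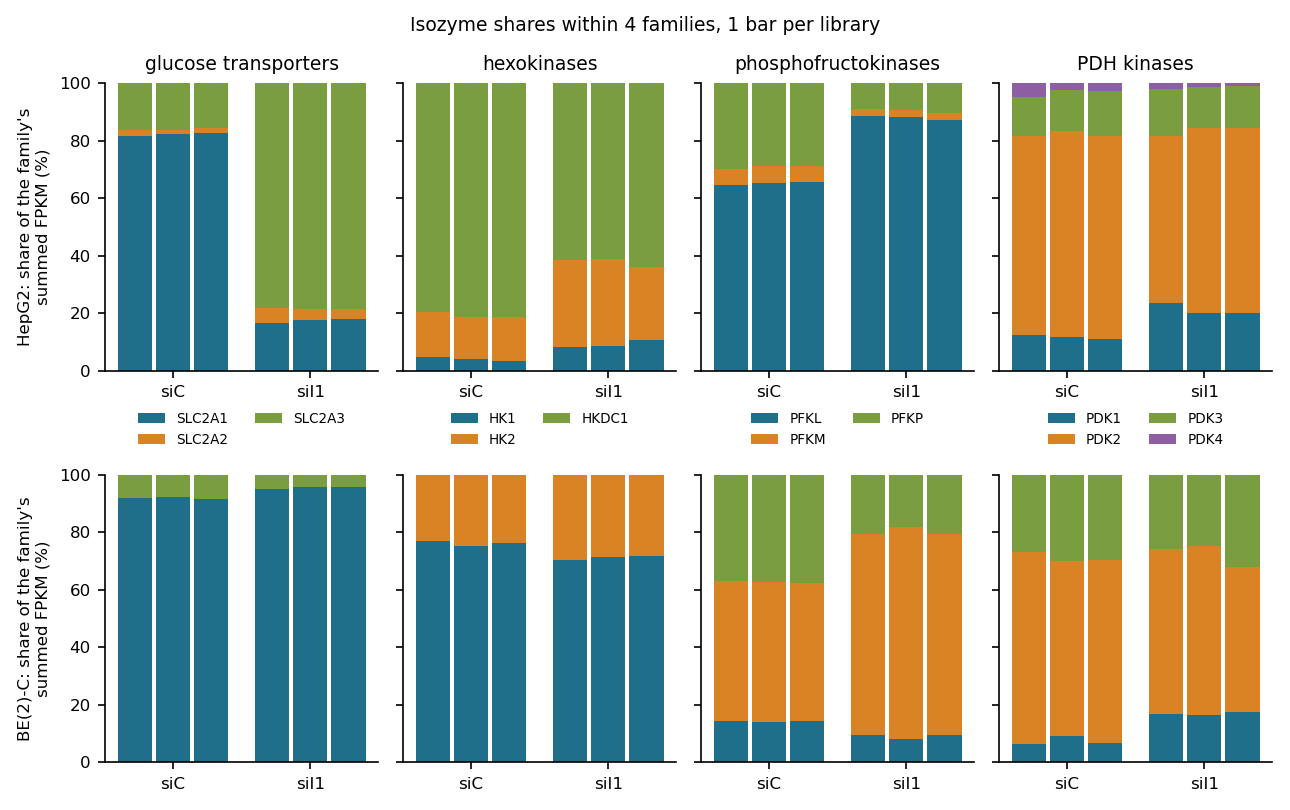
Share (%) of each gene in the summed FPKM of its family, 1 bar per library, for glucose transporters, hexokinases, phosphofructokinases and PDH kinases in HepG2 (upper row) and BE(2)-C (lower row). SLC2A1 drops from about 82% to below 19% of the transporters in HepG2, and PFKL in HepG2 and PFKM in BE(2)-C each gain 22.7 percentage points.

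The regulatory families moved too. PFKFB4 went from 20.1%, 23.4% and 21.8% of the PFKFB genes to 40.3%, 42.5% and 44.3% in HepG2, a gain of 20.6 percentage points, while PFKFB2 lost 16.5 percentage points. PDK1 went from 12.5%, 11.9% and 11.2% of the PDK genes to 23.4%, 19.95% and 20.1% in HepG2. Its share in BE(2)-C went from 6.35%, 9.26% and 6.85% to 16.9%, 16.5% and 17.4%. By recovered reads, the gain of PDK1 was 16.1 percentage points in HepG2 and 19.3 in BE(2)-C, against 9.31 and 9.43 by FPKM. PDK2 was the main PDK gene by FPKM in every library, but by reads PDK1 led in HepG2 siI1 replicate 1 (48.3% against 44.3%). ALDOC rose from 2.06% to 2.45% of the aldolase FPKM with siC to 7.27% to 7.79% with siI1 in HepG2, so ALDOA still held at least 92.2% there.

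Summed over the 38 genes, FPKM came to 2594, 2841 and 2724 with siC and 2355, 2733 and 2754 with siI1 in HepG2. The sum came to 6350, 5732 and 5676 with siC and 5933, 5576 and 5488 with siI1 in BE(2)-C. The groups overlapped in both lines. As a share of all FPKM of a library, the sum was lower with siI1 in HepG2 without overlap, at 1.03%, 1.07% and 1.05% with siC and 0.861%, 0.919% and 0.917% with siI1, and overlapped in BE(2)-C (1.98% to 2.16% and 1.96% to 2.02%). These sums are led by a few genes: GAPDH alone was 26.1% of the siC sum in HepG2 and 36.7% in BE(2)-C. It was followed in HepG2 by ENO1 with 13.2%, SLC2A1 with 10.7% and PGAM1 with 9.32%, and in BE(2)-C by TPI1 with 11.2%, ENO1 with 10.9% and LDHB with 9.31%.

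Levels in the siC libraries show how differently the lines are equipped, side by side and without a test since the tables were normalized separately. The mean FPKM of SLC2A1 was 292 in HepG2 and 33.9 in BE(2)-C, and that of SLC2A3 was 57.1 and 3.004. For HK1 it was 1.84 and 55.7, for PFKM 2.00 and 41.3, and for PFKP 10.6 and 31.8. LDHA stood at 160 and 3.51 and LDHB at 0.191 and 551. SLC16A3 stood at 49.3 and 0.0865, whereas SLC16A1, at 24.8 and 48.7, was well expressed in both.

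The response was compared between the lines in 1 limma fit over the 12 libraries, on the 32 genes that passed the filter in both tables. The difference was called for 17 of them, where 40.2% of all 15362 genes tested in both were called. For 10 the log2 fold change was lower in HepG2 than in BE(2)-C, and for 7 it was higher. The largest was that of SLC2A1 (-3.40, SE 0.09, limma adjusted p = 1.9e-09). SLC2A3 differed in the other direction (1.98, SE 0.13, limma adjusted p = 1.3e-06). These are the transporters that exchanged places in HepG2.

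Genes called in opposite directions in the lines, each with a called difference, were 7 in number. SLC2A1, HK2, PFKM, LDHB and SLC16A1 fell in HepG2 and rose in BE(2)-C, and SLC2A3 and PFKL did the reverse. Only SLC2A1, PFKM and PFKL kept both calls under every setting but the stricter thresholds: without siI1 replicate 2 of BE(2)-C, the other 4 were no longer called in that line (limma adjusted p = 0.082 to 0.10), and 3 remained. The differences were -1.95 for HK2 (SE 0.13, limma adjusted p = 1.5e-06), -1.53 for PFKM (SE 0.11, limma adjusted p = 1.5e-06) and 1.13 for PFKL (SE 0.12, limma adjusted p = 2.4e-05). HK1, PFKP and PGAM1 were called lower in both, and PDK1 higher in both. Of all 15362 genes tested in both lines, 5.82% were called in opposite directions, 6.60% lower in both and 4.34% higher in both, and the 38 genes were not tested against these shares. For GAPDH the difference was not called (0.38, SE 0.15, limma adjusted p = 0.058, and 0.0052 to 0.13 over the other settings), nor was it for LDHA (0.01, SE 0.09, limma adjusted p = 0.97).

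**Figure D4:**
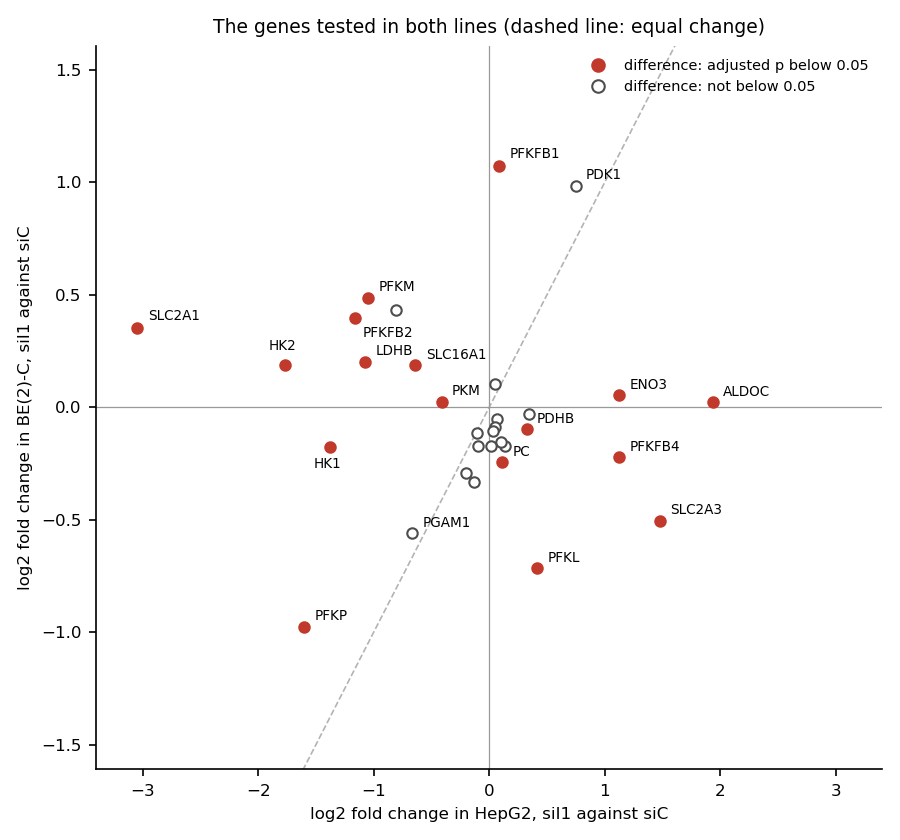
Log2 fold change (siI1 against siC) in HepG2 (x axis) and in BE(2)-C (y axis) of the 32 genes tested in both lines, filled where the difference between the lines had a limma adjusted p below 0.05, with a dashed line where both changes are equal. The axes differ in range; SLC2A1, HK2 and PFKM lie in the upper left, SLC2A3 and PFKL in the lower right, and PDK1 and PGAM1 near the dashed line.

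Of the genes called in only 1 line, ENO2, PDK2 and PC were called in BE(2)-C, and PFKFB2, PFKFB4, ALDOC, GAPDH, ENO3, PKM, PDHB and HKDC1 in HepG2. A difference between the lines was called for ALDOC (1.91, SE 0.18, limma adjusted p = 1.3e-05), PFKFB2 (-1.56, SE 0.28, limma adjusted p = 0.00098) and PFKFB4 (1.34, SE 0.15, limma adjusted p = 3.8e-05). It was also called for ENO3, PKM, PDHB and PC, with values of 1.07, -0.44, 0.42 and 0.35, and for PFKFB1 (-0.99), which was called in neither line and had few reads in BE(2)-C. The PFKFB1 difference was lost in 8 of 12 fits without 1 library, with a pseudocount of 1 and with the replicate block (limma adjusted p up to 0.29). It was not called for ENO2 (0.20, limma adjusted p = 0.074, and 0.028 to 0.85 over all settings, 5 of which called it) or PDK2 (0.09, limma adjusted p = 0.65). With equal sums the differences shift down as HepG2 does, those of PGAM1 (-0.30), PGK1 (-0.24) and FBP1 (-1.37) were called, that of PC was not, and 31.0% rather than 46.0% of all called differences were higher in HepG2.

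Other genes around these pathways were read from 8 lists chosen by function. The counts below stand beside the 55.9% of tested protein-coding genes called in HepG2 and the 35.4% in BE(2)-C, and no list was tested against them. Single libraries were left out for the calls named below, except those of genes listed next as called in the other line too. This lost the BE(2)-C calls of GFPT1, GLYCTK, PGLS, PHKA2, SLC2A4 and SUCLA2 and the HepG2 call of EPM2A (limma adjusted p up to 0.13). Genes are named for a line by the size of their change there, and some named for 1 line were called in the other too. In HepG2 these were MPC1 (-0.50), SLC37A4 (-0.85), P4HA2 (-0.43), IDH1 (-0.38) and SUCLA2 (-0.51), which fell, and PHKA2 (0.42), PPP1R3C (0.53), P4HA1 (0.67), PGLS (0.40), RPIA (0.24) and SDHA (0.27), which rose. In BE(2)-C they were DLAT (-0.34) and DLST (-0.19), which fell, and GBE1 (0.38), which rose. Of 26 tested further enzymes and carriers of glycolysis, gluconeogenesis and pyruvate use, 9 fell and 7 rose in HepG2 and 6 fell and 2 rose in BE(2)-C (median log2 fold change -0.13 and -0.14). In HepG2 these included GCKR, which codes for the regulator of glucokinase (-1.62), DLAT, a subunit of pyruvate dehydrogenase (-1.12), its phosphatase PDP1 (-1.06), and MPC2, a subunit of the mitochondrial pyruvate carrier (1.01). In BE(2)-C they included SLC37A4, the glucose-6-phosphate carrier of the endoplasmic reticulum (-1.50), SLC2A4 on 9 to 29 reads (-0.98), the mitochondrial enzyme PCK2 (-0.82) and the carrier subunit MPC1 (-0.51).

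In the pentose phosphate pathway, 4 of 10 tested genes fell and 4 rose in HepG2, and 2 fell and 3 rose in BE(2)-C (medians 0.12 and -0.03). PRPS2 (-0.72), TALDO1 (-0.54) and PRPS1 (-0.44) fell in HepG2. TALDO1 (-0.44) and PRPS1 (-0.34) fell in BE(2)-C too, where RPIA (0.44) and PGLS (0.33) rose. Of the glycogen genes, 9 of 19 fell and 8 rose in HepG2, and 2 of 20 fell and 5 rose in BE(2)-C (medians -0.25 and 0.06). The branching enzyme GBE1 (-1.08) and the regulators PPP1R3D (-1.21), PPP1R3B (-1.21, on 5 to 29 reads) and EPM2A (-0.79) fell in HepG2. PPP1R3B (1.25), PPP1R3C (0.68) and PHKA2 (0.48) rose in BE(2)-C. PPP1R3B thus moved in opposite directions (difference -2.46, SE 0.21, limma adjusted p = 5.5e-06).

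Fructose and polyol genes numbered 6 tested in HepG2, with 1 lower and 3 higher, and 5 in BE(2)-C, with 3 lower and none higher (medians 0.29 and -0.38). AKR1B10, an aldo-keto reductase, was by far the most abundant of them in HepG2 and fell (-1.94). KHK, which phosphorylates fructose, rose in HepG2 (1.20) and fell in BE(2)-C (-1.25, difference 2.45, SE 0.12, limma adjusted p = 2.2e-07), and SORD (0.79) and GLYCTK (0.44) rose in HepG2. AKR1B1 (-0.38) and GLYCTK (-0.60) fell in BE(2)-C. In the hexosamine pathway, 4 of 8 genes fell and 2 rose in HepG2, whereas 3 rose and none fell in BE(2)-C (medians -0.42 and 0.13). GFPT1, its entry enzyme, was at -0.59 in HepG2 and 0.46 in BE(2)-C (difference -1.05, SE 0.19, limma adjusted p = 0.0011). OGT, which attaches N-acetylglucosamine to proteins, was at -0.60 and 0.57 (difference -1.17, SE 0.15, limma adjusted p = 0.00013). UAP1 rose in both (0.62 and 0.33), and OGA, listed under its older symbol MGEA5, fell in HepG2 (-0.45).

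For the tricarboxylic acid cycle, 6 of 22 genes fell and 8 rose in HepG2, and 8 of 23 fell and none rose in BE(2)-C (medians 0.15 and -0.10). In HepG2 the largest changes were those of IDH3A (-1.08), IDH2 (0.70), citrate synthase CS (0.63) and DLST (-0.52). In BE(2)-C they were those of IDH1 (-0.60), SUCLA2 (-0.33), SDHA (-0.33) and IDH2 (-0.32). Transcriptional regulators of glucose genes split into 6 lower and 8 higher of 19 in HepG2 and 2 lower and 5 higher of 14 in BE(2)-C (medians 0.07 and 0.11). ARRDC4, a target of glucose-sensing factors that can restrain uptake, rose in both lines (1.83 and 1.79). The glucose-responsive factor MLXIPL (1.02) and the bile acid receptor NR1H4 (0.94) rose and PPARGC1A (-1.12) fell in HepG2. EPAS1 (0.64) rose and KLF15 (-0.99) and SREBF1 (-0.95) fell in BE(2)-C.

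Of the hypoxia-responsive genes outside glycolysis, 8 of 18 tested rose and 4 fell in HepG2, and 7 of 20 rose and 1 fell in BE(2)-C (medians 0.33 and 0.09). ANGPTL4 (2.61), CA9 (2.04) and DDIT4 (1.44) rose and INSIG2 (-1.11) fell in HepG2. MXI1 (0.71), DDIT4 (0.60) and P4HA1 (0.47) rose and P4HA2 (-0.81) fell in BE(2)-C.

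The 38 genes are spread over 15 chromosomes, with 6 on chromosome 12 and 5 each on chromosomes 1 and 10. Exons of 19 of them overlap an exon of a listed gene on the opposite strand, and for 8 of these the opposite gene had over 10% of their reads in either line. Besides ENO3, PFKM and PFKFB2, these are PKLR with HCN3, FBP1 with PCAT7, PC with LRFN4, PDK2 with SAMD14 and SLC16A3 with CSNK1D. PDK2 shares 2113 exonic bases with SAMD14, which had 307 reads beside 2368 of PDK2 in BE(2)-C. BE(2)-C had 2 reads of PKLR beside 500 of HCN3 and 48 of SLC16A3 beside 15401 of CSNK1D. PC shares 621 exonic bases with LRFN4, which had 5775 reads beside 9416 of PC in BE(2)-C. The large changes of SLC2A1, SLC2A3 and HK2 concern genes without such a partner, and that of HKDC1 one whose partner had 33 reads beside 7659. Pseudogenes named after 12 of the 38 genes, 105 in number, had at most 3.33% of the reads of their parent, for LDHB in HepG2, where this was 1 read beside 30. The next highest were 2.21% for LDHA in BE(2)-C and 1.80% and 1.63% for TPI1 in HepG2 and BE(2)-C.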

How the data were processed

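Per the study's methods and the submitters' processing notes, the authors clipped reads with cutadapt 1.14, mapped them to hg38 with HISAT2 2.1.0, sorted alignments with SAMtools 1.5 and counted reads per Ensembl gene with featureCounts 1.5.3, without a stated strand setting. For each line they deposited FPKM values by gene and library, scaled by TMM factors of edgeR 3.30.3. The unit is not named in the tables and was read from the values: 100% of nonzero values, times gene length, were within 0.01 of whole reads. Their columns of fold changes, p-values and false discovery rates were not used.

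Each table was tested in R 4.3.3 with limma 3.58.1 (trend, moderated errors; data.table, version 1.17.8, read the files) on log2(FPKM + 0.1), two-sided, for genes that reached an FPKM of 0.1 in 3 or more of 6 libraries. P-values were adjusted over all tested genes by Benjamini-Hochberg and called below 0.05. The difference between the lines was a contrast in 1 fit over the 12 libraries. The fits were tested on simulated data. Sums, shares and sequence matches were made in Python 3.11.15 with NumPy 2.4.6 and pandas 2.3.3, and figures with Matplotlib 3.10.9. Values in every library are given for genes of the set called with an absolute log2 fold change of at least 0.5 in either line and for GAPDH, HK2, PKM, LDHA and SLC2A1. Of each other list, up to 4 called genes with the largest change per line are named, with a few left out. The isozyme and library shares given, the shares of all genes called in both lines, the neighbour and opposite-strand checks, the promoters and motifs, and the difference test for list genes named by size in both lines were chosen after their values were seen. The 38 genes and the lists were chosen with earlier results of these data known. The tables list 37 mitochondrially encoded genes, all at 0 in every library, so no mitochondrial share was given. The alternatives were other pseudocounts (0.01 and 1), filters and scalings, no trend, a replicate block, leaving out each library, stricter thresholds, limma voom on the recovered reads, the difference of the separate fits with a normal p and, for shares, reads in place of FPKM. Genomic positions are those of the annotation on hg38.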

Additional observations from a re-analysis of the deposited data

Results flagged for a closer look

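The results below had a response to the IGF2BP1 siRNA that differed between the cell lines, by the test of the difference in 1 limma fit over the 12 libraries with an adjusted p below 0.05. Each value is the log2 fold change (siI1 against siC) in HepG2 minus that in BE(2)-C, so a negative value means lower in HepG2. No cause was tested. The siRNA concentration also differed between the lines and cannot be told apart from the line.

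In the uptake and trapping of glucose, the difference was -3.40 for SLC2A1, 1.98 for SLC2A3, -1.95 for HK2 and -1.20 for HK1. In the phosphofructokinase step it was 1.13 for PFKL, -1.53 for PFKM and -0.63 for PFKP. Among the PFKFB regulators it was -1.56 for PFKFB2, 1.34 for PFKFB4 and -0.99 for PFKFB1. PFKFB2 was near 0 in BE(2)-C, with 246 reads summed over its libraries. PFKFB1 had 1 to 11 reads per library in BE(2)-C, and its difference was lost in 8 of 12 fits without 1 library. Further down the pathway the difference was 1.91 for ALDOC, 1.07 for ENO3 and -0.44 for PKM. Behind pyruvate it was -1.28 for LDHB, on 0 to 11 reads per library in HepG2, 0.42 for PDHB, 0.35 for PC and -0.83 for SLC16A1. From the other lists, the difference was tested only for genes named by the size of their change in both lines. It was -2.46 for PPP1R3B, 2.45 for KHK, 1.03 for GLYCTK, -1.05 for GFPT1, 0.29 for UAP1, -1.17 for OGT, 1.02 for IDH2 and 0.84 for DDIT4. GBE1 and SDHA, called in opposite directions, and the other genes given as called in the other line too were not tested for a difference.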

How the results depend on the processing

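None of the calls reported for the 38 genes turned its direction under any setting tried. Apart from the stricter thresholds, 16 of 19 calls in HepG2, 7 of 14 in BE(2)-C and 15 of 17 called differences between the lines held under every setting. Those that did not were GAPDH, LDHB and PDHB in HepG2, SLC2A3, HK1, HK2, LDHB, PDK2, PC and SLC16A1 in BE(2)-C, and the differences of PFKFB1 and PC. The values that turned sign belonged to genes that were not called, and the cause was not tested. Equal sums of FPKM shift the HepG2 log2 fold changes down by construction, since the siC libraries had the smaller sums. They turned the HepG2 log2 fold changes of GPI (-0.10), PFKFB1 (-0.077), PFKFB3 (-0.11), ALDOA (-0.030), TPI1 (-0.063), PGK1 (-0.12), PDHA1 (-0.13), PDK3 (-0.14), PC (-0.056) and SLC16A3 (-0.13). They also turned the differences of GPI (-0.066), PFKFB3 (-0.046), ENO1 (-0.12), LDHA (-0.18), PDHA1 (-0.047) and PDK2 (-0.095). With equal sums the calls of GAPDH and PDHB in HepG2 and of the PC difference were lost (limma adjusted p = 0.057, 0.054 and 0.098). Limma voom on the recovered reads gave -0.0058 for PDHA1, -0.024 for PDK3 and -0.0077 for SLC16A3 in HepG2. Centring on the median gave 0.0090 for GAPDH in BE(2)-C, and a pseudocount of 1 gave -0.017 for the difference of LDHA. Leaving out 1 library at a time moved the log2 fold change across 0 for PFKFB1 (-0.012 to 0.16), PFKFB3 (-0.029 to 0.13), PDHA1 (-0.026 to 0.08), PDK3 (-0.073 to 0.11) and SLC16A3 (-0.018 to 0.10) in HepG2. In BE(2)-C it did so for GPI (-0.11 to 0.016), ALDOC (-0.075 to 0.14), GAPDH (-0.067 to 0.032), ENO3 (-0.060 to 0.16) and PKM (-0.0075 to 0.08), and for the differences of ENO1 (-0.0077 to 0.16) and LDHA (-0.076 to 0.056). In HepG2, 10 to 11 genes were called lower and 7 to 12 higher without 1 library; the 12 were found without siI1 replicate 1, which added GPI, ALDOA, TPI1 and PC (log2 fold changes 0.17, 0.24, 0.20 and 0.15). Genes that were not called became so in HepG2 for SLC2A2 under 4 settings, for PC also after median centring, for ENO1, ENO2, PKLR, LDHA and PDK2 with equal sums and for ENO2, LDHA and PDK4 with voom. The same held in BE(2)-C for PFKFB1, ALDOA, TPI1, PGK1 and ENO1 with voom, for PFKFB1 without the trend or siC replicate 2, for PGK1 with equal sums and for ALDOA and FBP1 with the replicate block. Differences not called became so for ALDOA, TPI1, GAPDH, PGK1, PGAM1, ENO2 and FBP1 under 1 to 5 settings each. In BE(2)-C, where 8 were called lower and 6 higher, the counts were 4 to 7 and 3 to 6: 5 lower without siC replicate 1 or 3, 4 lower without siI1 replicate 2 or 3, and 3 higher without siI1 replicate 1 or 2. Over all genes, 2489 were called higher in BE(2)-C, against 1634, 1564 and 1519 without siI1 replicate 1, 2 and 3. Fewer genes were called lower in BE(2)-C without the mean-variance trend (5) and after median centring (5). The stricter adjusted p of 0.01 left 4 lower and 3 higher in BE(2)-C, and a minimum log2 fold change of 0.5 left 4 lower and 1 higher there and 5 higher in HepG2. Reads in place of FPKM moved the change in share of HKDC1 to -21.0 percentage points, of PFKL to 16.2, of PDK1 to 16.1 and of PFKFB4 to 25.5 in HepG2, and of PDK1 to 19.3 in BE(2)-C. The difference of PFKFB1 was lost in 8 of the 12 fits without 1 library (limma adjusted p up to 0.084), with a pseudocount of 1 and with the replicate block (limma adjusted p = 0.077 with the block, and 0.0065 to 0.29 over all settings). The labels do not say whether the replicate numbers pair the samples. Over all tested genes, deviations of siC and siI1 libraries that share a number correlated at 0.06, 0.04 and -0.01 in HepG2. In BE(2)-C the values were 0.02, -0.01 and -0.0028. These values pool all genes and cannot decide whether libraries were paired. The FPKM sum of the 38 genes was lowest in replicate 1 of both groups in HepG2 and highest there in BE(2)-C. The order of replicates 2 and 3 differed between the HepG2 groups. A replicate block gave 10 genes lower and 9 higher for HepG2, 7 lower and 6 higher for BE(2)-C, and 21 called differences. For list genes given as called in the other line too, that second call was not tried without single libraries. Of the other calls named from the lists, those of GFPT1, GLYCTK, PGLS, PHKA2, SLC2A4 and SUCLA2 in BE(2)-C and of EPM2A in HepG2 were lost without 1 or more single libraries. The limits are those of 3 libraries per group and of depth. LDHB, PDK4, PCK1 and FBP1 in HepG2 and PFKFB1 and SLC16A3 in BE(2)-C had at most 27 reads per library, too few to show modest changes. A gene at 0 was not detectable at this depth. Proteins, enzyme activity, glucose flux and splice forms were not measured here.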
